A study of Mus musculus with 9 samples.

Results

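Dendritic cells carry antigen from the lung to lymph nodes and present it to T cells. The 10 genes described here are the marker transcripts Cd209a, Xcr1, Clec9a, Flt3, Zbtb46, Batf3, Itgae, Siglech, Ccr7 and Fscn1, taken by gene symbol from a deposited table of 55359 genes, and each had 1 row. Poly(A) RNA of lung tissue was sequenced on day 28 from male mice of the C57BL/6J strain (aged 6 to 8 weeks), in 3 groups of 3 libraries. Silica + ATL-III mice received 5 mg of silica into the trachea and 30 mg/kg per day of ATL-III (atractylenolide III, a plant sesquiterpene lactone) into the abdomen, Silica mice received 5 mg of silica alone, and Control mice received saline into the trachea. Each group held 20 mice, but whether each library stands for 1 mouse is not stated, so the tests speak of the variation among libraries, some of which may be technical. No group received ATL-III without silica, so a changed silica response and an effect of ATL-III or of injection in any lung cannot be told apart.

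Several dendritic cell types live in the lung, and the markers divide by type. Conventional type 1 cells, which take up dead cells and cross-present their antigens to CD8 T cells, depend on the transcription factor Batf3 and carry the chemokine receptor Xcr1, the lectin Clec9a, a receptor for exposed actin of dead cells, and, in the lung, the integrin Itgae (CD103), which binds E-cadherin. Cd209a (DC-SIGN) is a lectin of type 2 and monocyte-derived dendritic cells. Siglech marks plasmacytoid dendritic cells, the main producers of type I interferon. Flt3 is the receptor for the growth factor that sustains the lineage, and Zbtb46 is a transcription factor of conventional dendritic cells. Ccr7 guides mature dendritic cells to lymph nodes, and Fscn1, the actin-bundling fascin, rises as they mature. These genes are not exclusive to dendritic cells: Itgae is also made by T cells in epithelia, Ccr7 by T and B cells, and Zbtb46 by endothelium. In bulk tissue, fewer cells of a type and less RNA per cell cannot be told apart.

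Promoter sequences were looked up in RefSeq (GRCm38.p6) as the 300 bases from 250 before to 50 after the start site. Of the 10 members 8 had one, and Itgae and Ccr7 had none. The promoters of Cd209a and Xcr1 are shown because Cd209a had the strongest decrease after silica and Xcr1 the strongest decrease with ATL-III against Silica among the 8 tested with the FPKM filter. Both strands were searched for an AP-1 motif, TGANTCA, the kind of site bound by BATF3 with partners of the JUN family, and for the composite ETS-IRF motif GGAANNGAA. Capitals mark the ETS-IRF matches, and neither promoter held an AP-1 match.
Cd209a promoter, chr8:3748935-3749234 (minus strand): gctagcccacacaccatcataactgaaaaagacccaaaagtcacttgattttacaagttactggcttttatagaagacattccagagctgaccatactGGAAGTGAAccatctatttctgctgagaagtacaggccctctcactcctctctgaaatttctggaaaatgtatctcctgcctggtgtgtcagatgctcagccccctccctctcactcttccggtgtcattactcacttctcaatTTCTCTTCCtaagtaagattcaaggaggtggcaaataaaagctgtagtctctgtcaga
Xcr1 promoter, chr9:123861980-123862279 (minus strand): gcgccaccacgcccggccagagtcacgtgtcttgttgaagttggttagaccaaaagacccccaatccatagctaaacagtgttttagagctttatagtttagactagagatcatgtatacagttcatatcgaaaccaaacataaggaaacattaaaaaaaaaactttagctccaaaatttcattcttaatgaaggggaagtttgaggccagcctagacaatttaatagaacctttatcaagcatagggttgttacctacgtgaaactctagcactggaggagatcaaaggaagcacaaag
The Cd209a promoter held 2 ETS-IRF matches, 1 on each strand, and the Xcr1 promoter held none. Over all 27025 mouse promoters of the same length, 8.25% held the ETS-IRF motif and 7.93% the AP-1 motif. Among the 8 members, Cd209a alone held the ETS-IRF motif and Zbtb46 alone the AP-1 motif, 61 bases before its start. The RefSeq start used for Zbtb46 lies inside the gene bounds of the annotation (GENCODE M21) and not at their minus-strand end, so that window belongs to another start. A match is a description of these letters only.

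The markers were low transcripts in whole lung. In FPKM, which scales reads to gene length and library size, mean levels in Silica + ATL-III lungs were highest for Clec9a (13 ± 3.51, SD, n = 3 here and throughout) and lowest for Siglech (0.320 ± 0.185). The order in Silica lungs began with Clec9a (13.3 ± 3.69), Ccr7 (6.22 ± 1.80) and Zbtb46 (3.03 ± 0.0551) and ended with Siglech (0.880 ± 0.123) and Flt3 (0.660 ± 0.0100). Cd209a, Itgae, Fscn1, Xcr1 and Batf3 lay between, and each neighbouring pair from Zbtb46 down to Batf3 overlapped. In Control lungs Clec9a (19.3 ± 1.78) and Cd209a (9.69 ± 0.525) each stood apart from the next gene, whereas Xcr1, Fscn1, Flt3 and Siglech, the lowest in that order, overlapped neighbour by neighbour. Cd209a thus had the second highest mean of the 10 in Silica + ATL-III and in Control lungs, and the fourth highest in Silica lungs. In Silica + ATL-III its values (3.40 to 5.51) overlapped those of the next gene, Zbtb46 (2.97 to 4.32), and Zbtb46 overlapped Ccr7 (1.60 to 4.53). The plot of FPKM by library shows all 90 values.

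**Figure D1:**
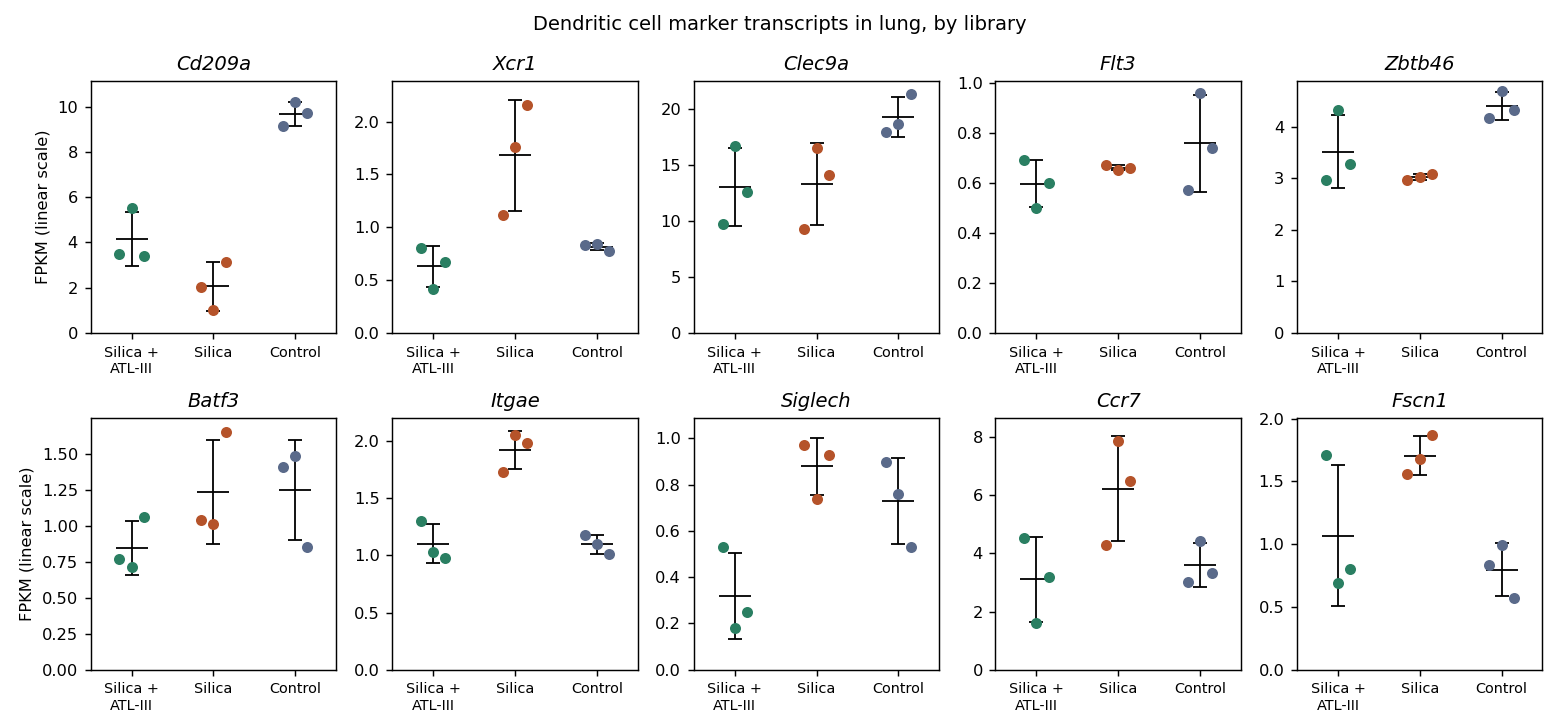
FPKM (linear axis from 0, scaled for each gene) of the 10 markers in each library, with bars for the mean ± SD of 3 libraries per group. Cd209a is highest in the Control libraries (9.15 to 10.20) and Xcr1 and Itgae are highest in the Silica libraries (1.12 to 2.16 and 1.73 to 2.05).

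Changes were tested on counts with edgeR's quasi-likelihood test over 15459 genes that reached 1 FPKM in at least 3 of the 9 libraries, with Benjamini-Hochberg adjustment, and a gene was called where its adjusted p was under 0.05. All adjusted p-values below come from this test, and fold changes are log2 values ± SE. Flt3 and Siglech never reached 1 FPKM, so their tests come from a fit of 18374 genes with at least 10 counts in at least 3 libraries. Xcr1 passed the first filter only through the 3 Silica libraries, and Fscn1 through these and 1 Silica + ATL-III library. Where leaving out 1 library ended a call, the largest adjusted p and the libraries are given, and every other named call held with each of the 9 libraries left out in turn. The comparisons share libraries, so they are not independent of each other.

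Silica against Control asks how the markers stood 28 days after the dust. Cd209a averaged 2.07 ± 1.08 FPKM in Silica, against 9.69 ± 0.525 in Control, while Xcr1, Itgae and Fscn1 were higher and Zbtb46 was lower. With the 10-count filter, which all 10 members passed, 3 were called higher and 1 lower, against 8.39% of all tested genes called higher and 5.80% lower. The median fold change of the 10 was 0.25, against -0.002 over all genes of that fit. With the FPKM filter 3 of 8 were higher and 2 lower, against 9.11% and 7.81%, but Xcr1 and, in the main, Fscn1 entered that test through the Silica libraries, so nothing is read from its count.

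Silica + ATL-III against Silica asks how the markers stood when ATL-III was given with silica. Xcr1, Itgae, Ccr7 and, with the 10-count filter, Siglech were lower, and Cd209a was higher. With the 10-count filter 1 of 10 members was called higher and 4 lower, against 10.4% and 8.90% of all tested genes, and their median was -0.58, against 0.003 over all. With the FPKM filter, whose count has the same limit, 1 of 8 was higher and 3 lower, against 11.2% and 10%. Between Silica + ATL-III and Control, only Cd209a was called among the 10 members with the 10-count filter, lower in Silica + ATL-III, and 0 were higher, against 5.67% and 8.79% of all tested genes (median of the 10, -0.21, against 0.009 over all). The FPKM filter gave the same counts of 1 lower and 0 higher over 8 members, against 6.71% and 9.14%. At an unadjusted p under 0.05 no member was higher in Silica + ATL-III than in Control, and DESeq2 called none higher.

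**Figure D2:**
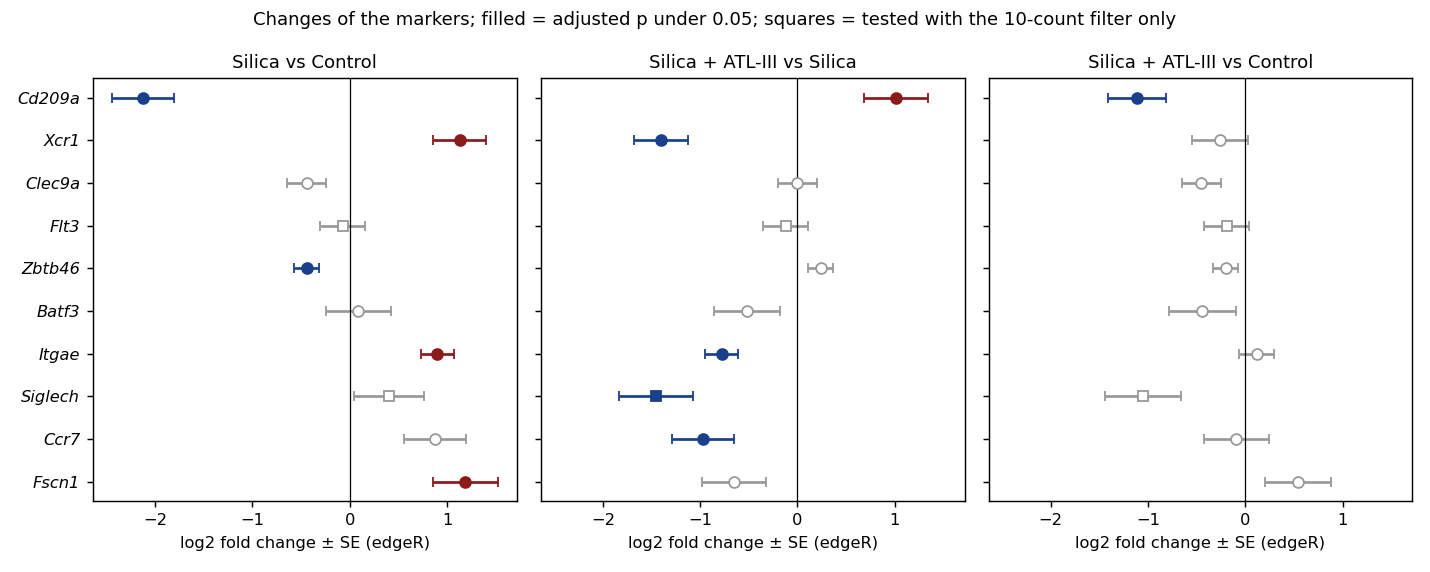
Log2 fold change ± SE (edgeR) of each marker in 3 comparisons, with the group named first on top of the ratio; filled symbols have an adjusted p under 0.05 and squares come from the fit with the 10-count filter. Cd209a lies at -2.12 in Silica vs Control and at 1.01 in Silica + ATL-III vs Silica, and Xcr1 lies at 1.13 and -1.40.

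Xcr1 (ENSMUSG00000060509, GRCm38 chr9:123852315-123862029, minus strand) encodes the receptor through which type 1 cells respond to XCL1. It had 0.80, 0.42 and 0.67 FPKM in Silica + ATL-III libraries 1 to 3, against 1.12, 1.76 and 2.16 in Silica libraries 1 to 3 and 0.83, 0.84 and 0.78 in Control libraries 1 to 3. These levels rest on 31 to 171 reads per library. All 3 Silica libraries lay above all the others, and the Silica + ATL-III and Control libraries overlapped. Xcr1 rose in Silica against Control (1.13 ± 0.27, adjusted p = 0.0193), a call lost without Silica 3 or any of the 3 Control libraries (up to 0.0743) and with limma on log2(FPKM + 0.5) (0.0619) and log2(FPKM + 0.1) (0.0742). It was lower in Silica + ATL-III than in Silica (-1.40 ± 0.28, adjusted p = 0.00519). With the 10-count filter, which does not rest on the Silica libraries for Xcr1, the adjusted p-values were 0.0176 and 0.00478. The difference between Silica + ATL-III and Control was -0.26 ± 0.29 (adjusted p = 0.587).

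Itgae (ENSMUSG00000005947, GRCm38 chr11:73090583-73147446, plus strand; the gene Haspin lies within its bounds on the other strand and shares no exonic base) was likewise highest in Silica. Its FPKM were 1.30, 1.03 and 0.98 in Silica + ATL-III libraries, against 1.73, 2.05 and 1.98 in Silica libraries and 1.18, 1.10 and 1.01 in Control libraries. Silica libraries again lay above all others without overlap. Itgae rose in Silica against Control (0.90 ± 0.17, adjusted p = 0.00788) and was lower in Silica + ATL-III than in Silica (-0.78 ± 0.17, adjusted p = 0.00905). Silica + ATL-III differed from Control by 0.12 ± 0.18 (adjusted p = 0.687). Over the 9 libraries Xcr1 and Itgae had a Pearson correlation of 0.91 and a Spearman correlation of 0.867, as a description of libraries that fall into 3 groups. T cells also make Itgae, and the T and NK cell genes are described below.

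Batf3 (ENSMUSG00000026630, GRCm38 chr1:191097847-191108945, plus strand), the factor on which type 1 cells depend, was not called in any comparison. Whether its changes differed from those of Xcr1 was not tested. It had 0.77, 0.71 and 1.06 FPKM in Silica + ATL-III libraries, against 1.04, 1.01 and 1.65 in Silica libraries and 1.41, 1.48 and 0.85 in Control libraries, on 19 to 47 reads each. All 3 groups overlapped. The fold change was 0.09 ± 0.33 in Silica against Control (adjusted p = 0.882) and -0.52 ± 0.34 in Silica + ATL-III against Silica (adjusted p = 0.298).

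Clec9a (ENSMUSG00000046080, GRCm38 chr6:129408862-129424763, plus strand), a lectin of type 1 cells, was the highest marker in each group. It had 9.77, 16.74 and 12.59 FPKM in Silica + ATL-III libraries, against 9.30, 16.54 and 14.13 in Silica libraries and 17.94, 18.72 and 21.33 in Control libraries. Both silica-exposed groups lay below Control without overlap and overlapped each other. No fold change passed the test: -0.44 ± 0.20 in Silica against Control (adjusted p = 0.141), 0.00 ± 0.20 in Silica + ATL-III against Silica (0.991) and -0.45 ± 0.20 in Silica + ATL-III against Control (0.16). The annotation (GENCODE M21) puts Clec9a between 2 other lectin genes of the same cluster. It shares 184 exonic bases with Clec1b upstream on the same strand, and it ends 9 bases from the end of Clec1a (chr6:129424772-129452000), a lectin gene of endothelium that is read from the opposite strand. The sources do not say whether the libraries or the counting kept strand, so whether reads at that junction were assigned by strand is unknown.

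Clec1a had 17.80, 38.72 and 29.21 FPKM in Silica + ATL-III libraries, against 21.21, 38.88 and 25.86 in Silica libraries and 42.48, 37.45 and 45.64 in Control libraries. The ratio of Clec9a to Clec1a FPKM lay between 0.422 and 0.549 in all 9 libraries, while Clec1a itself varied more widely. Pearson correlations of Clec9a over the 9 libraries were 0.949 with Clec1a, 0.839 with the endothelial cadherin gene Cdh5 and -0.114 with Xcr1 (Spearman 0.85, 0.90 and -0.20), as descriptions. The fold changes of Clec1a were -0.46 ± 0.25 in Silica against Control (adjusted p = 0.219) and 0.02 ± 0.25 in Silica + ATL-III against Silica (0.957). How many Clec9a reads arose from Clec1a or Clec1b transcripts was not tested, so Clec9a is uncertain as a measure of type 1 cells here.

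**Figure D3:**
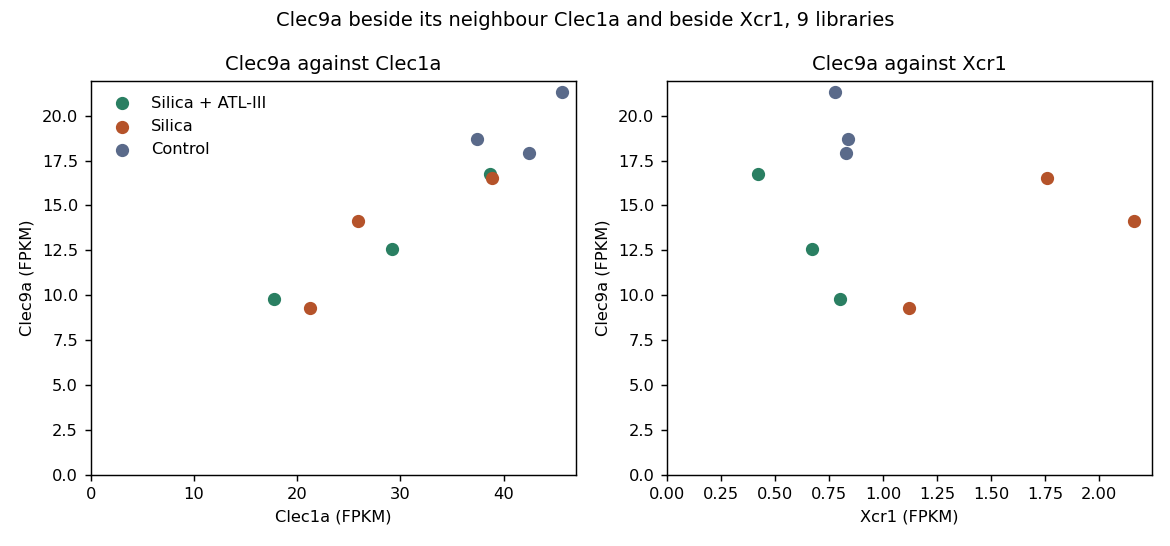
FPKM of Clec9a (vertical axis) against FPKM of its neighbour Clec1a (left) and of Xcr1 (right); each point is 1 of 9 libraries, coloured by group. Clec9a and Clec1a are low and high in the same libraries (r = 0.949), whereas the Silica libraries with the highest Xcr1, at 1.76 and 2.16, are in the middle of the Clec9a range.

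Cd209a (ENSMUSG00000031494, GRCm38 chr8:3743397-3748984, minus strand), the type 2 lectin whose promoter is shown above, had the largest fold change of the 10 members in Silica against Control. It had 3.49, 5.51 and 3.40 FPKM in Silica + ATL-III libraries, against 2.03, 1.01 and 3.16 in Silica libraries and 9.15, 10.20 and 9.71 in Control libraries. The 3 groups did not overlap: Silica was lowest, Silica + ATL-III was between, and Control was highest. Cd209a fell in Silica against Control (-2.12 ± 0.32, adjusted p = 0.00229) and was also lower in Silica + ATL-III than in Control (-1.11 ± 0.30, adjusted p = 0.0284). It was higher in Silica + ATL-III than in Silica (1.01 ± 0.33, adjusted p = 0.0468). The last 2 calls were lost without single libraries. The call against Control was lost without Silica + ATL-III 1 or 3 or any Control library (up to 0.0977), and the call against Silica without Silica + ATL-III 1 or 2, Silica 1 or 2, or any Control library (up to 0.179). The call against Silica was also lost with upper-quartile factors (adjusted p = 0.0505), with limma on log2(FPKM + 0.5) (0.054) and when only the 6 libraries compared were fitted (0.0942).

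Cd209a belongs to a cluster of related lectins, and the sources used here do not say how reads shared between copies were counted. Cd209c, a copy with few reads, had 0.303 ± 0.0777 FPKM in Silica + ATL-III, against 0.240 ± 0.130 in Silica and 1.94 ± 0.150 in Control. It fell in Silica against Control (-2.89 ± 0.40, adjusted p = 0.0013) and in Silica + ATL-III against Control (-2.54 ± 0.39, adjusted p = 0.00104), and Silica + ATL-III stood 0.35 ± 0.46 above Silica (adjusted p = 0.627). Cd209c passed the FPKM filter only through the Control libraries. With the 10-count filter, which does not rest on the Control libraries alone for Cd209c, Silica stood at -2.86 against Control (adjusted p = 0.00145). Cd209b, Cd209d and Cd209e were below the FPKM filter. With the 10-count filter, Cd209b (-1.13, adjusted p = 0.069) and Cd209d (-0.27, adjusted p = 0.746) were not called in Silica against Control, and Cd209e was not tested.

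Flt3 (ENSMUSG00000042817, GRCm38 chr5:147330741-147400489, minus strand), the receptor shared by the lineage, overlaps the antisense gene Gm26597 but shares no exonic base with it. It had 0.69, 0.50 and 0.60 FPKM in Silica + ATL-III libraries, against 0.67, 0.65 and 0.66 in Silica libraries and 0.57, 0.96 and 0.74 in Control libraries. The groups overlapped, and the fold changes were -0.07 ± 0.23 in Silica against Control (adjusted p = 0.864), -0.12 ± 0.23 in Silica + ATL-III against Silica (0.755) and -0.19 ± 0.23 in Silica + ATL-III against Control (0.631).

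Zbtb46 (ENSMUSG00000027583, GRCm38 chr2:181387762-181459426, minus strand) had 2.97, 4.32 and 3.27 FPKM in Silica + ATL-III libraries, against 2.97, 3.03 and 3.08 in Silica libraries and 4.17, 4.70 and 4.33 in Control libraries. All Silica libraries lay below all Control libraries, and Silica + ATL-III overlapped both. Zbtb46 fell in Silica against Control (-0.44 ± 0.13, adjusted p = 0.0437), a call lost without any 1 of these 6 libraries (up to 0.124) and with the 10-count filter (0.0581). Neither other comparison passed: 0.24 ± 0.13 in Silica + ATL-III against Silica (adjusted p = 0.23) and -0.20 ± 0.13 in Silica + ATL-III against Control (0.336). Endothelium also makes Zbtb46, and over the 9 libraries Zbtb46 and Cdh5 had a Pearson correlation of 0.81 (Spearman 0.828). Cdh5 had 32.7 ± 9.78 FPKM in Silica + ATL-III, against 32.3 ± 5.99 in Silica and 44.0 ± 0.745 in Control. The part of endothelium in the Zbtb46 difference was not tested.

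Siglech (ENSMUSG00000051504, GRCm38 chr7:55768178-55778925, plus strand), the marker of plasmacytoid cells, had 0.53, 0.18 and 0.25 FPKM in Silica + ATL-III libraries, against 0.97, 0.74 and 0.93 in Silica libraries and 0.90, 0.76 and 0.53 in Control libraries. Reads were few, with 29, 10 and 14 in Silica + ATL-III, against 57, 42 and 56 in Silica and 50, 41 and 29 in Control. All Silica + ATL-III libraries lay below all Silica libraries. Siglech was lower in Silica + ATL-III than in Silica (-1.45 ± 0.38, adjusted p = 0.021 with the 10-count filter), a call lost without Silica + ATL-III 2 or 3 or Silica 1 or 3 (up to 0.0803). Against Control the difference of Silica + ATL-III was -1.05 ± 0.39 (adjusted p = 0.0954), which passed without Silica + ATL-III 1 (0.0216). Silica stood 0.40 ± 0.36 above Control (adjusted p = 0.474).

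Ccr7 (ENSMUSG00000037944, GRCm38 chr11:99144196-99155077, minus strand), the receptor for CCL19 and CCL21, had 4.53, 1.60 and 3.18 FPKM in Silica + ATL-III libraries, against 4.30, 7.88 and 6.48 in Silica libraries and 3.02, 4.44 and 3.34 in Control libraries. Silica + ATL-III 1 lay above Silica 1, so the groups overlapped. Ccr7 was lower in Silica + ATL-III than in Silica (-0.97 ± 0.32, adjusted p = 0.0492), a call lost without Silica + ATL-III 2 or 3, Silica 2 or 3, or any Control library (up to 0.129). It was also lost with limma on log2(FPKM + 0.5) (0.0615) and with only the 6 libraries compared (0.0768). Silica stood above Control by 0.88 ± 0.32 (adjusted p = 0.0743), a difference that passed without Silica + ATL-III 1 or 2 (down to 0.0314), with DESeq2 (0.0297) and with only the 6 libraries compared (0.026).

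Fscn1 (ENSMUSG00000029581, GRCm38 chr5:142960343-142973185, plus strand), the maturation marker, had 1.71, 0.69 and 0.80 FPKM in Silica + ATL-III libraries, against 1.56, 1.68 and 1.87 in Silica libraries and 0.83, 0.99 and 0.57 in Control libraries. Silica libraries lay above all Control libraries, while Silica + ATL-III 1 was among the Silica values and the other Silica + ATL-III libraries were among the Control values. Fscn1 rose in Silica against Control (1.19 ± 0.33, adjusted p = 0.0337), a call lost without Silica 1 or 3 or any Control library (up to 0.123) and with limma on log2(FPKM + 0.5) (0.0615). Silica + ATL-III stood below Silica by -0.65 ± 0.33 (adjusted p = 0.177), and passed without Silica + ATL-III 1 (0.0203).

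The genes that tracked each member most closely were named by Pearson correlation over the 9 libraries among all tested genes, as a description only. Xcr1 was nearest to the purinergic receptor gene P2ry14 (r = 0.966, Spearman 0.833), then Scimp and Ccdc25 (both 0.944). Itgae was nearest to Slc26a4 (0.971) and Pik3ap1 (0.959), with Ly75, the endocytic receptor DEC-205, next (0.954, Spearman 0.833). Ly75 is on the list of type 1 genes below, but which lung cells gave its reads was not tested. Fscn1 was nearest to Rnf220 (0.958), with Ccl22, a chemokine of mature dendritic cells, next (0.952, Spearman 0.833) and then Mcm3 (0.944). Ccr7 was nearest to Tsacc (0.94) and Ofd1 (0.938), and then to the T cell receptor subunit Cd3g (0.928, Spearman 0.883). Cd209a was nearest to Senp3 (0.956), Cidec (0.947) and Esam (0.945), Clec9a to Pitpnc1 (0.964), Zbtb46 to Bicd2 (0.951) and Batf3 to Wrnip1 (0.919).

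Ligands of the members' receptors were on a list of 12 genes, of which 11 were tested. In Silica against Control 2 were called higher and 2 lower, in Silica + ATL-III against Silica 0 higher and 6 lower, and in Silica + ATL-III against Control 1 higher and 3 lower. Over all genes tested with the FPKM filter, 9.11% were called higher and 7.81% lower in Silica against Control. The shares were 11.2% and 10% in Silica + ATL-III against Silica, and 9.14% and 6.71% in Silica + ATL-III against Control. Medians over all genes were -0.013, 0 and -0.01. These values stand beside the counts and medians of every list below. With 1 library left out, the 2 higher became 1 without Silica + ATL-III 2, Silica 1, Silica 3 or any Control library. The 2 lower became 0 to 1 without Silica 1, Silica 3 or any Control library. The 6 lower became 2 to 3 without Silica + ATL-III 1 or 2 or Silica 3, and the 1 higher than Control was lost without Control 1. Flt3l, the ligand of Flt3, had 7.61, 8.36 and 8.96 FPKM in Silica + ATL-III libraries, against 9.08, 13.07 and 11.09 in Silica libraries and 15.59, 18.82 and 17.35 in Control libraries, and the 3 groups did not overlap. It was lower in Silica + ATL-III than in Control (-0.93 ± 0.13, adjusted p = 0.000478). It fell in Silica against Control (-0.54 ± 0.12, adjusted p = 0.0157; up to 0.0638 without Silica 1 or 3 or Control 2 or 3) and in Silica + ATL-III against Silica (-0.39 ± 0.13, adjusted p = 0.047; up to 0.146 without Silica + ATL-III 1 or 2, Silica 2 or 3, or any Control library).

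Xcl1, the ligand of Xcr1, was sparse, with 2, 1 and 4 reads in Silica + ATL-III libraries, against 8, 27 and 14 in Silica libraries and 8, 4 and 10 in Control libraries. It was lower in Silica + ATL-III than in Silica (-2.65 ± 0.67, adjusted p = 0.0164), a call lost without Silica + ATL-III 1 or 2 (up to 0.0678). Silica stood above Control by 1.14 ± 0.56 (adjusted p = 0.167). Ccl21a, a ligand of Ccr7 with near-identical copies whose reads may be shared, was lower in Silica + ATL-III than in Control (-0.67 ± 0.14, adjusted p = 0.00698). It was also lower than in Silica (-0.51 ± 0.14, adjusted p = 0.0227; up to 0.0925 without Silica + ATL-III 3 or Silica 3). Cdh1, the E-cadherin that Itgae binds, was lower in Silica + ATL-III than in Silica (-0.54 ± 0.13, adjusted p = 0.0122), a call lost without Silica 3 (0.0567). Csf2 (GM-CSF), a growth factor for dendritic cells and macrophages, was lower in Silica + ATL-III than in Silica (-1.81 ± 0.39, adjusted p = 0.00716), and rose in Silica against Control (1.24 ± 0.37, adjusted p = 0.0415; up to 0.115 without Silica + ATL-III 2, any Silica library or any Control library). Ccl20, a chemokine that draws immature dendritic cells through CCR6, rose in Silica against Control (2.13 ± 0.38, adjusted p = 0.00532). It passed the FPKM filter only through the Silica libraries and Silica + ATL-III 3, and with the 10-count filter the adjusted p was 0.00515. Ccl20 was lower in Silica + ATL-III than in Silica (-1.40 ± 0.36, adjusted p = 0.0177; up to 0.0704 without Silica + ATL-III 1 or 2 or Silica 1 or 3). Kitl, the stem cell factor, fell in Silica against Control (-0.42 ± 0.12, adjusted p = 0.0368; up to 0.128 without Silica 1 or 3 or any Control library) and was lower in Silica + ATL-III than in Control (-0.58 ± 0.12, adjusted p = 0.00688). Csf1, the macrophage growth factor, was higher in Silica + ATL-III than in Control (0.90 ± 0.20, adjusted p = 0.0112; 0.0532 without Control 1). Ccl19, the other ligand of Ccr7, was below the expression filter, at 0.423 ± 0.376 FPKM in Silica + ATL-III, against 0.420 ± 0.167 in Silica and 0.240 ± 0.111 in Control.

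Other type 1 genes numbered 14, of which 10 were tested. After silica, against Control, 2 rose and 0 fell (median 0.31), in Silica + ATL-III against Silica 0 rose and 5 fell (median -0.47), and in Silica + ATL-III against Control 1 rose and 1 fell (median -0.09). The 2 that rose became 4 without Silica 2. The 5 that fell became 2 to 3 without Silica + ATL-III 1 or 2 or Silica 1 or 3. Against Control, the 1 that rose was lost without Silica + ATL-III 1 or 3 or any Control library, and the 1 that fell became 2 without Silica + ATL-III 2 or Silica 2. Ly75 had 4.93 ± 0.865 FPKM in Silica + ATL-III, against 11.8 ± 2.17 in Silica and 4.49 ± 0.546 in Control. It rose in Silica against Control (1.5 ± 0.17, adjusted p = 0.000406) and fell in Silica + ATL-III against Silica (-1.25 ± 0.17, adjusted p = 0.000579). Ly75 had 440 to 1707 reads per library, against 31 to 171 for Xcr1, and which lung cells gave the Ly75 reads was not tested. Cadm1, an adhesion molecule of type 1 cells and of epithelium, was lower in Silica + ATL-III than in Silica (-0.92 ± 0.12, adjusted p = 0.000394) but had no difference between Silica and Control beyond its error (0.00 ± 0.11, adjusted p = 0.992). It was also lower in Silica + ATL-III than in Control (-0.92 ± 0.12, adjusted p = 0.000313). Id2, a transcriptional regulator that type 1 cells need and many other cells make, rose in Silica against Control (1.06 ± 0.15, adjusted p = 0.00136). It was lower in Silica + ATL-III than in Silica (-0.53 ± 0.14, adjusted p = 0.0235; up to 0.0798 without Silica + ATL-III 1 or 2 or Silica 1 or 3) and higher than in Control (0.53 ± 0.15, adjusted p = 0.0295; up to 0.0993 without Silica + ATL-III 1 or 3 or any Control library). Irf8, a transcription factor of type 1 and plasmacytoid cells, fell in Silica + ATL-III against Silica (-0.51 ± 0.15, adjusted p = 0.033; up to 0.101 without Silica + ATL-III 1 or 2 or Silica 1 or 3).

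Other type 2 and monocyte-derived dendritic cell genes numbered 17, of which 13 were tested. In each of the 3 comparisons 2 rose and 2 fell, with medians of -0.17 in Silica against Control, 0.15 in Silica + ATL-III against Silica and -0.02 in Silica + ATL-III against Control. Shares of all tested genes called higher and lower were 9.11% and 7.81%, 11.2% and 10%, and 9.14% and 6.71%, in that order. With so few genes, nothing about the list is read from its counts. Beside Cd209c, the other gene that fell after silica was Mgl2, a galactose-binding lectin (-0.58 ± 0.15, adjusted p = 0.0261; up to 0.0995 without Silica 1 or 3 or any Control library), which was also lower in Silica + ATL-III than in Control (-0.78 ± 0.15, adjusted p = 0.00475). The genes that rose after silica were Sirpa (1.13 ± 0.15, adjusted p = 0.0012) and Itgam (1.72 ± 0.26, adjusted p = 0.00236), both also made by macrophages, monocytes and neutrophils. In Silica + ATL-III, Itgam was higher than in Silica (0.95 ± 0.25, adjusted p = 0.0182; 0.0754 without Silica 3) and than in Control (2.67 ± 0.27, adjusted p = 6.83e-05), and Sirpa was lower than in Silica (-0.74 ± 0.15, adjusted p = 0.00599). Notch2, a receptor that type 2 cells depend on and that other lung cells make too, was higher in Silica + ATL-III than in Silica (0.62 ± 0.10, adjusted p = 0.00148). Irf4, the transcription factor of type 2 cells, had 0.617 ± 0.222 FPKM in Silica + ATL-III, against 0.860 ± 0.215 in Silica and 1.13 ± 0.285 in Control, and did not pass (-0.30 ± 0.30 in Silica against Control, adjusted p = 0.508). The 2 that fell after silica became 1 without Silica 1 or 3 or any Control library. The 2 that fell in Silica + ATL-III against Silica became 1 without Silica + ATL-III 2 or any Silica library, and the 2 that rose became 1 without Silica 3. Against Control, the 2 that rose became 1 without Control 3.

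Other plasmacytoid genes numbered 17, of which 12 were tested. In Silica against Control 2 rose and 1 fell, in Silica + ATL-III against Silica 2 rose and 4 fell, and in Silica + ATL-III against Control 2 rose and 4 fell, with medians of 0.24, -0.26 and -0.12. The shares of all tested genes, given with the ligands, stand beside these counts of few genes. After silica the 2 that rose became 1 without Silica 1 or Control 1, and the 1 that fell was lost without Silica 1 or 3 or Control 1 or 3. In Silica + ATL-III against Silica the 2 that rose became 1 without Silica 3, and against Control the 4 that fell became 1 to 2 without Silica + ATL-III 2 or Control 2. Tcf4, the transcription factor that sets plasmacytoid identity, was lower in Silica + ATL-III than in Silica (-0.51 ± 0.10, adjusted p = 0.00599) and than in Control (-0.70 ± 0.11, adjusted p = 0.000975). Tcf4 had 2594 to 5211 reads per library, against 10 to 57 for Siglech, and which lung cells gave the Tcf4 reads was not tested. Of the other genes that fell in Silica + ATL-III against Silica, Ly6d (-2.01 ± 0.49, adjusted p = 0.0137), Blnk (-1.5 ± 0.25, adjusted p = 0.00178) and Spib (-2.01 ± 0.56, adjusted p = 0.0253; up to 0.0884 without Silica + ATL-III 2 or 3 or Silica 1 or 2) are also genes of B cells. Tlr7, the endosomal RNA sensor of plasmacytoid cells, macrophages and B cells, rose in Silica against Control (1.53 ± 0.11, adjusted p = 4.16e-05) and was higher in Silica + ATL-III than in Control (1.62 ± 0.11, adjusted p = 6.82e-06). Blnk rose in Silica against Control (1.07 ± 0.24, adjusted p = 0.0148; up to 0.0639 without Silica 1 or Control 1) and Cox6a2 fell (-0.78 ± 0.19, adjusted p = 0.021; up to 0.091 without Silica 1 or 3 or Control 1 or 3). Klra17, a lectin-like receptor, was higher in Silica + ATL-III than in Silica (3.15 ± 0.62, adjusted p = 0.00445) and than in Control (3.83 ± 0.65, adjusted p = 0.00205). It had 22.8 FPKM in Silica + ATL-III, against 2.61 in Silica and 1.75 in Control. The neutrophil genes described below were higher in the same comparisons, and which cells gave the Klra17 reads was not tested. Irf7, the master factor of type I interferon production, had 26.31 FPKM in Silica + ATL-III 1, against 4.71 and 6.30 in the other libraries of that group, 4.55 to 6.80 in Silica and 3.64 to 5.07 in Control.

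Other genes of mature, migrating dendritic cells numbered 24, of which 20 were tested. Of these, 9 rose and 0 fell in Silica against Control (median 0.60). The lowest members, Il15ra (-0.44 ± 0.18, adjusted p = 0.102) and Traf1 (-0.46 ± 0.16, adjusted p = 0.0612), did not pass. In Silica + ATL-III against Silica 2 rose and 6 fell (median -0.31), and in Silica + ATL-III against Control 4 rose and 0 fell (median 0.30). The 9 that rose became 5 without Silica 1, Silica 3 or Control 1, and the 0 that fell became 1 without Silica + ATL-III 1 or Silica 2. The 6 that fell became 2 to 3 without Silica + ATL-III 2 or 3 or Silica 1 or 3. Against Control, the 4 that rose became 2 without Silica + ATL-III 1 or Control 1, and the 0 that fell became 1 without Silica 2. Ccl22 had 3.52 ± 1.64 FPKM in Silica + ATL-III, against 5.86 ± 0.702 in Silica and 2.23 ± 0.310 in Control, and rose in Silica against Control (1.49 ± 0.27, adjusted p = 0.00612). Its value in Silica + ATL-III 1, 5.41 FPKM, was among those of the Silica libraries, as for Fscn1. The chemokine Ccl17 (0.87 ± 0.17, adjusted p = 0.00831), the costimulatory ligand Cd86 (1.18 ± 0.18, adjusted p = 0.00268) and the NF-kappaB subunit Relb (0.66 ± 0.13, adjusted p = 0.00889) rose after silica as well. Relb stayed higher in Silica + ATL-III than in Control (0.71 ± 0.13, adjusted p = 0.00373). Cd86 was higher in Silica + ATL-III than in Control (0.78 ± 0.19, adjusted p = 0.0145; up to 0.0574 without Silica + ATL-III 1 or Control 1 or 2). Cd63, a tetraspanin of lysosomes also abundant in macrophages, rose in Silica against Control (1.48 ± 0.24, adjusted p = 0.00319) and fell in Silica + ATL-III against Silica (-1.08 ± 0.24, adjusted p = 0.00791). Samsn1, an adaptor protein, was higher in Silica + ATL-III than in Silica (1.08 ± 0.22, adjusted p = 0.00601) and than in Control (1.83 ± 0.23, adjusted p = 0.000314). Cd83, a surface marker of maturation, was lower in Silica + ATL-III than in Silica (-0.92 ± 0.20, adjusted p = 0.00814).

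Genes shared by dendritic cells and other antigen-presenting cells numbered 20, of which 19 were tested. In Silica against Control 7 rose and 1 fell (median 0.34), in Silica + ATL-III against Silica 3 rose and 10 fell (median -0.75), and in Silica + ATL-III against Control 4 rose and 5 fell (median -0.23). The 1 that fell after silica was lost without Silica + ATL-III 1 or 2, Silica 1 or 3, or any Control library. Itgax (CD11c), of dendritic cells and alveolar macrophages, had 10.1 ± 1.22 FPKM in Silica + ATL-III, against 23.5 ± 7.37 in Silica and 8.46 ± 0.275 in Control. It rose in Silica against Control (1.58 ± 0.21, adjusted p = 0.000921) and fell in Silica + ATL-III against Silica (-1.21 ± 0.20, adjusted p = 0.00203). Ciita, the switch for MHC class II genes, was lower in Silica + ATL-III than in Silica (-1.35 ± 0.18, adjusted p = 0.000575) and than in Control (-1.23 ± 0.18, adjusted p = 0.000852), whereas Silica stood 0.12 ± 0.17 above Control (adjusted p = 0.651). Csf2rb, the signalling subunit of the GM-CSF receptor, rose in Silica against Control (1.31 ± 0.15, adjusted p = 0.00045) and was higher in Silica + ATL-III than in Control (1.81 ± 0.15, adjusted p = 2.12e-05), and Ctss, the cathepsin that trims the invariant chain, rose in Silica against Control (2.20 ± 0.28, adjusted p = 0.000899). Spi1 (PU.1), a myeloid transcription factor, was higher in Silica + ATL-III than in Silica (1.34 ± 0.20, adjusted p = 0.00106) and than in Control (2.39 ± 0.21, adjusted p = 2.91e-05). H2-Ob, of the MHC class II loading pathway in B cells and some dendritic cells, was lower in Silica + ATL-III than in Silica (-1.86 ± 0.28, adjusted p = 0.00114), and H2-DMb2 than in Control (-1.34 ± 0.19, adjusted p = 0.00074). Dpp4 (CD26) was the 1 gene that fell after silica (-0.42 ± 0.12, adjusted p = 0.0423; up to 0.153 in the reduced fits).

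**Figure D4:**
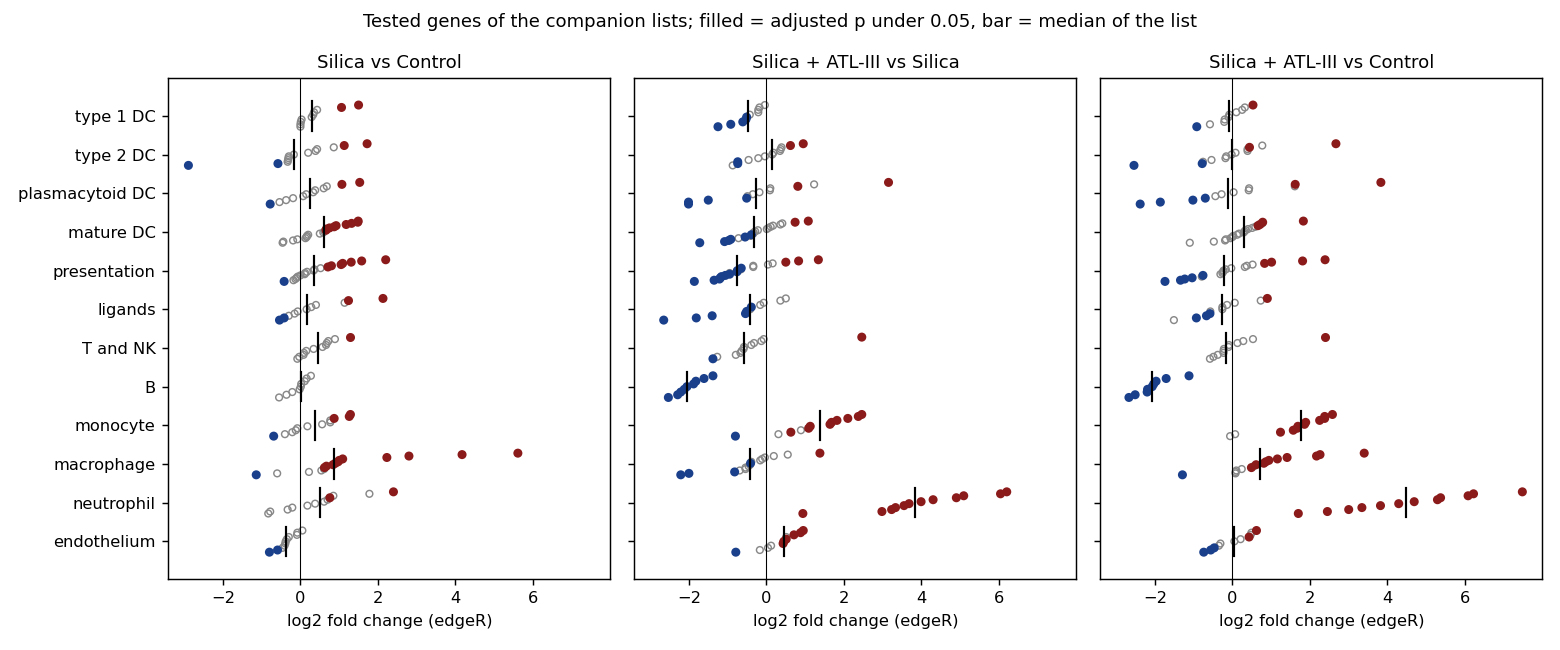
Log2 fold change (edgeR) of each tested gene of 12 lists in 3 comparisons, with the group named first on top of the ratio; filled points have an adjusted p under 0.05 and the black bar is the list's median. Mature dendritic cell genes have a median of 0.60 in Silica vs Control and -0.31 in Silica + ATL-III vs Silica, B cell genes lie at -2.05 and neutrophil genes at 3.84 in the second comparison.

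Markers of other cells that share these transcripts moved as well, and no listed marker was at 0 in every library. Of 12 tested T and NK cell genes, 1 rose and 0 fell in Silica against Control, 1 rose and 1 fell in Silica + ATL-III against Silica, and 1 rose and 0 fell in Silica + ATL-III against Control. These counts are near the shares of all tested genes given with the ligands, so nothing about the list is read from them. With 1 library left out, the first count became 0 to 2 (without any Silica + ATL-III library, Silica 1, or Control 1 or 3), the 1 that fell became 5 without Silica + ATL-III 3, and the last 1 became 2 without Silica + ATL-III 2. The summed FPKM of the 17 T and NK cell genes was 90.08 to 143.32 in Silica + ATL-III, against 86.24 to 112.0 in Silica and 58.17 to 88.96 in Control. Cd3g, the nearest T cell gene to Ccr7, was not called (Silica + ATL-III against Silica, -0.79 ± 0.29, adjusted p = 0.0701). Of 9 tested B cell genes, 0 were called in Silica against Control and 9 fell in both other comparisons (medians -2.05 against Silica and -2.07 against Control). The 10 B cell genes summed to 8.87 to 26.93 FPKM in Silica + ATL-III, against 49.72 to 93.39 in Silica and 41.35 to 93.22 in Control. Among the T and NK cell genes, Il7r, the interleukin 7 receptor, rose in Silica against Control (1.29 ± 0.30, adjusted p = 0.0158; up to 0.0696 without Silica 1 or Control 1 or 3) and fell in Silica + ATL-III against Silica (-1.38 ± 0.30, adjusted p = 0.00745). Among the B cell genes, Fcer2a was lower in Silica + ATL-III than in Silica by -2.29 ± 0.40 and than in Control by -2.19 ± 0.40, Pax5 (-2.53 ± 0.47) and Fcrla (-1.88 ± 0.35) than in Silica, and Blk (-1.97 ± 0.34) than in Control. The part of T and B cells in the Itgae, Ccr7, Spib, Ly6d and Blnk differences was not tested.

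Of 16 tested macrophage genes, 11 rose and 1 fell in Silica against Control, 1 rose and 4 fell in Silica + ATL-III against Silica (2 fell without Silica + ATL-III 2 or Silica 3), and 10 rose and 1 fell in Silica + ATL-III against Control (6 rose without Control 2). They summed to 9268 to 12746 FPKM in Silica + ATL-III, against 14362 to 15882 in Silica and 7260 to 9347 in Control. That sum was nearly all Lyz2, a lysozyme also made by monocytes and neutrophils, at 9035 to 12431 FPKM in Silica + ATL-III, against 14077 to 15485 in Silica and 7104 to 9170 in Control. The other 15 summed to 232.7 to 314.5 FPKM in Silica + ATL-III, against 285.0 to 441.7 in Silica and 156.5 to 182.9 in Control. The macrophage genes Gpnmb (5.61 ± 0.48), Trem2 (4.17 ± 0.40) and Cd68 (2.23 ± 0.25) rose in Silica against Control, and the scavenger receptor Cd163 fell (-1.14 ± 0.19). In Silica + ATL-III, Gpnmb (-2.21 ± 0.40) and Trem2 (-2.0 ± 0.34) were lower and Cd163 higher (1.38 ± 0.19) than in Silica, while Gpnmb (3.40 ± 0.44), Marco (2.26 ± 0.32) and Cd68 (1.41 ± 0.25) were higher and Fabp1 lower (-1.29 ± 0.24) than in Control.

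Of 12 monocyte genes, 3 rose and 1 fell in Silica against Control, 9 rose and 1 fell in Silica + ATL-III against Silica, and 10 rose and 0 fell in Silica + ATL-III against Control. F13a1 was higher in Silica + ATL-III than in Silica (2.37 ± 0.21) and than in Control (2.25 ± 0.21), as were Vcan (2.10 ± 0.23 and 1.89 ± 0.23) and Ly6c2 (1.82 ± 0.26 and 2.58 ± 0.27). After silica Chil3 (1.26 ± 0.26; adjusted p = 0.0537 without Control 3) and Fn1 (0.87 ± 0.22; up to 0.0797 without Silica 1 or any Control library) were among the listed genes that rose. Ace was the 1 that fell (-0.69 ± 0.17; up to 0.0928 without Silica 1 or 3 or any Control library). Ace had 50.5 ± 5.89 FPKM in Silica, against 87.1 ± 4.55 in Control. Unlike the 10 that rose, Ace was not called in Silica + ATL-III against Control (-0.06 ± 0.17, adjusted p = 0.852). Being listed does not make these genes exclusive to monocytes, and which lung cells gave the Chil3, Fn1 and Ace reads was not tested. Fn1 was lower in Silica + ATL-III than in Silica (-0.80 ± 0.22; up to 0.0916 without Silica + ATL-III 2 or 3 or Silica 1). The counts after silica became 0 to 5 without Silica + ATL-III 3, Silica 1 or any Control library for those that rose, and 0 without Silica 1, Silica 3 or any Control library for the 1 that fell. The 1 that fell against Silica was lost without Silica + ATL-III 2 or 3 or Silica 1. All 12 neutrophil genes were higher in Silica + ATL-III than in Silica (median 3.84) and than in Control (median 4.49), and in Silica against Control 2 rose and 0 fell (0 to 1 rose without any 1 Silica library or Control 1). The granule protein gene Ngp was higher in Silica + ATL-III than in Silica (5.09 ± 0.50) and than in Control (7.48 ± 0.61), as was Mmp8 (6.04 ± 0.60 and 6.22 ± 0.60). Il1r2 was higher than in Silica (6.20 ± 0.72) and Camp than in Control (3.82 ± 0.43). After silica Ltf (0.76 ± 0.20; up to 0.103 without Silica 1 or 3 or Control 1 or 2) and Ngp (2.40 ± 0.71; up to 0.114 without Silica 2 or any Control library) rose. Neutrophil genes summed to 30129 to 45455 FPKM in Silica + ATL-III, against 734 to 4511 in Silica and 558 to 3893 in Control. Most of that was S100a8 and S100a9, and the other 10 summed to 4302 to 5182 FPKM in Silica + ATL-III, against 81.8 to 345.9 in Silica and 66.0 to 355.8 in Control.

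Of 11 endothelial genes, 0 rose and 2 fell in Silica against Control (1 to 5 fell without Silica 1, Silica 2 or Control 3), and 6 rose and 1 fell in Silica + ATL-III against Silica (3 rose without Silica + ATL-III 2 or Silica 1). Between Silica + ATL-III and Control 2 rose and 3 fell (1 to 4 rose without Silica + ATL-III 2 or 3 or Control 2 or 3, and 0 to 1 fell without Silica + ATL-III 1 or Control 2 or 3). They summed to 349.12 to 437.59 FPKM in Silica + ATL-III, against 242.55 to 326.24 in Silica and 383.9 to 409.14 in Control. Cldn5, the claudin of endothelial junctions, was higher in Silica + ATL-III than in Silica (0.51 ± 0.10, adjusted p = 0.00349) and than in Control (0.43 ± 0.10). Flt1 (0.88 ± 0.19) and Pecam1 (0.95 ± 0.21) were higher and Emcn lower (-0.79 ± 0.18) in Silica + ATL-III than in Silica. Emcn (-0.74 ± 0.18; up to 0.0715 without Silica + ATL-III 1 or Control 3) and Kdr (-0.56 ± 0.14; up to 0.0733 without Silica + ATL-III 1 or 3 or Control 2 or 3) were lower than in Control. After silica Tie1 (-0.80 ± 0.15) and Tek (-0.59 ± 0.14; up to 0.0797 without Silica 1 or Control 3) fell. The part of macrophages, monocytes, neutrophils and endothelium in the marker differences was not tested.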

How the data were processed

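Lung poly(A) RNA of 9 libraries was sequenced, and per the labels' protocols the RNA was fragmented and primed at random, with no strand-marking step named. The submitters' processing notes list mm10 as build and, as tools, HTSeq 0.6.1, HISAT2 2.0.1 and cutadapt 1.9.1; which annotation release served is not given in these sources. The authors' deposited table gives raw whole-number counts for every gene in each library. It also gives FPKM, which the authors derived from counts, per the file headers. Recomputing FPKM from counts, exonic lengths and column totals gave 100% of deposited values within 0.006. Of 55359 genes 1438 have no symbol. Totals ran from 16047175 to 17792481 counts per library, and few reads limit the precision of the lowest markers.

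Counts were tested with edgeR 4.0.16 (R 4.3.3, TMM, quasi-likelihood F test) in 1 fit of 3 group means over all 9 libraries (6 residual degrees of freedom), without a covariate. Alternatives used limma 3.58.1, DESeq2 1.42.0, other scalings and filters, a replicate block, the 6 libraries compared and each library left out. Leaving out libraries with the 10-count filter was added after seeing the data. Correlations within groups were 0.982 to 0.992, and between groups 0.949 to 0.982. Scripts were tested on simulated data. The markers and gene lists were chosen with earlier results of these data known. Genes named are the members; up to 3 called genes with the smallest p from each companion list and comparison, with the leading called gene of the other direction; Irf8, Irf4, Tcf4, Itgax, Flt3l, Xcl1, Ccl19, Ccl21a, Csf2 and Cdh1; and the 3 tested genes whose log2 CPM (prior count 2) correlated best with each member. Clec1a, Clec1b, Cdh5, Mgl2, Ly6d and Spib, Ccl17, Irf7, Cd3g and the lowest mature genes were named after their values were seen. Some genes that met the rule are not reported here. Coordinates are GENCODE M21 (GRCm38), matched by gene identifier.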

Additional observations from a re-analysis of the deposited data

How the results depend on the processing

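Calls of Cd209a and Itgae in Silica against Control, and of Xcr1 and Itgae in Silica + ATL-III against Silica, held in every fit with 1 library left out. Members called higher and lower in Silica against Control (3 and 2) became 1 higher with limma on log2(FPKM + 0.5) or log2(FPKM + 0.1), 1 lower with the 10-count filter, and 1 to 4 higher and 1 to 2 lower with 1 library left out. In Silica + ATL-III against Silica (1 and 3) the number higher became 0 with upper-quartile factors, with limma at either pseudocount, with the 6 libraries compared alone, and was 0 to 1 with 1 library left out, when 2 to 4 were lower. In Silica + ATL-III against Control (0 and 1) 3 were lower without a filter, and 0 to 1 with 1 library left out. Calls over all genes numbered 2615, 3279 and 2451 in these 3 comparisons, and 862 to 3944, 1925 to 3877 and 1474 to 2864 with 1 library left out; the cause was not tested.

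Near-zero, uncalled differences changed sign. Batf3 in Silica against Control was -0.015 with library totals alone, -0.010 and -0.011 with limma at both pseudocounts, and -0.163 to 0.228 with 1 library left out. Clec9a in Silica + ATL-III against Silica was 0.004 with the 10-count filter, 0.001 without a filter, and -0.22 to 0.168 with 1 library left out. Flt3 in Silica against Control was 0.117 without Control 2, and Ccr7 in Silica + ATL-III against Control -0.447 (without Silica + ATL-III 1) to 0.224 (without Silica + ATL-III 2). Library totals alone moved the median gene by -0.101, -0.021 and -0.121 in the 3 comparisons. The share of calls that were higher was 53.8%, 52.6% and 57.6%, against 32.7%, 45.9% and 34.3% with library totals, 33.6%, 45.3% and 35.2% with limma at 0.5, and 55.2%, 42.5% and 47.4% with upper-quartile factors.

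Libraries of the groups share replicate numbers, and over 9 same-numbered pairs deviations correlated at -0.133 to 0.12, with 1 of 9 over 0.1. Between Silica and Control the values were 0.09, 0.12 and 0.09. Whether Silica and Control libraries with the same number share more than that number is not known. All 6 libraries of Silica and Control correlated best with their own number, and 0 of 6 in each other pair of groups. With the replicate number as a block, 1 member was lower in Silica against Control and 0 were higher in Silica + ATL-III against Silica, with Zbtb46 (adjusted p = 0.0537) lost in the first comparison and Cd209a (0.0702) and Ccr7 (0.0863) in the second, and 2120, 2822 and 2109 genes were called in all. Reads were few for Siglech, Batf3, Xcr1 and Fscn1, which limits what can be detected for them.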
